A study of Mus musculus with 54 samples.

Results

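Dense clusters of distal accessible regions were described in mouse embryonic stem (ES) cells. Members were the distal peaks of a merged ATAC-seq peak list, selected on their positions alone. A peak was distal when its centre lay more than 1 kb from every annotated transcription start site (TSS). Distal autosomal peaks were joined into runs wherever the gap between neighbours was no wider than the midpoint between 0 and 25 kb, and runs of at least 10 peaks were kept. This gave 7162 peaks in 536 clusters, which is 8.10% of 88432 distal autosomal peaks and 6.30% of all 113737 peaks of the list. The positions, gaps and numbers of peaks chose the clusters, so counts, lengths and densities are given as descriptions.

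The list pooled peaks of 54 ATAC-seq samples in 24 groups, all from ZHBTc4 ES cells, in which a doxycycline-repressible promoter drives Pou5f1, the gene of OCT4. The cells carried mCherry-OCT4-AID, a fusion degraded on addition of the auxin IAA and expressed at low level from a PGK promoter, and the cell cycle reporter YPet-MD. All groups received 1 ug/ml dox, so that the fusion was the source of OCT4, and grew in serum with LIF and both inhibitors of the 2i medium. In 22 samples (26 h dox) cells with or without 2 h of 500 nM IAA were sorted into early G1, late G1, S and late S/G2 phases. In 16 samples (31 h dox) the same 4 phases were taken with 2.5 h of IAA or none, followed by 4.5 h of washout in both arms. The other 16 samples were an unsorted course (34 h dox) without IAA or with 30 min, 1, 2, 3, 4, 6 or 10 h of IAA. Groups held 2 or 3 replicates. The list gives positions only, with no value for any sample, so no difference between groups or phases was measured, the depth behind each peak is unknown, and a peak may stem from any of the groups.

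Distal accessible sites include enhancers, which transcription factors keep free of nucleosomes. Enhancers of genes that define a cell type often lie in groups along the chromosome. In ES cells OCT4 and SOX2 bind side by side to a composite motif, together with NANOG, ESRRB, KLF factors and the LIF-activated factor STAT3, while CTCF binds at chromatin loop ends and domain borders.

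Sequences were read from GRCm38 to show what these sites look like, The composite OCT4::SOX2 motif was searched as CATTGT, 1 free base and ATGCAAAT with up to 2 mismatches. Among 7162 members, 17 held a match within 200 bp around the peak centre, each in a different cluster. This search by fixed letters is strict, and how many composite sites it misses was not measured. The only site with 1 mismatch and, as examples, 3 of the 16 sites with 2 mismatches are given. They are on the strand of the motif, with matched bases in capitals.
Between Nebl and H2al2a, chr2:17892908-17892922 (+): CATTGctATGCAAAT
Beside H2al2a, chr2:17989299-17989313 (+): CATTGTtATGCgtAT
Beyond Klf5, chr14:99354209-99354223 (-): CATTGTgATGgtAAT
Between Gpr180 and Sox21, chr14:118180745-118180759 (-): CATTGggATGCAtAT
The sites on chromosome 2 belonged to neighbouring clusters of 13 and 22 peaks. The larger held TSSs of A930004D18Rik and H2al2a, and the TSS of Skida1 lay 2.86 kb beyond its end. The site in it was nearer to the TSS of H2al2a than to that of Skida1. The site beyond Klf5, which encodes a Krüppel-like factor of naive pluripotency, lay in the last of the 11 peaks of its cluster. This was the only OCT4::SOX2 match in the 7 clusters within 50 kb of a naive pluripotency regulator.

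The 200 bp around this site and around motifs in 6 other clusters are printed on the plus strand of GRCm38, with the whole motif in capitals. In each cluster the widest intergenic or intronic member with the motif was taken. The Klf5 site follows the rule for named sequences, and the other motifs were chosen after their values were seen.
Klf5, OCT4::SOX2 on the minus strand, intergenic, chr14:99354116-99354315: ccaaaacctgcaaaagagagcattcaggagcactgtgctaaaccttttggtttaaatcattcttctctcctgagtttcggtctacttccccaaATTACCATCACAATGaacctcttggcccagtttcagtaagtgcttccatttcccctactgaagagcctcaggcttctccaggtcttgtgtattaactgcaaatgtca
Esrrb, ESRRB motif TCAAGGTCA, intron of Esrrb, chr12:86501963-86502162: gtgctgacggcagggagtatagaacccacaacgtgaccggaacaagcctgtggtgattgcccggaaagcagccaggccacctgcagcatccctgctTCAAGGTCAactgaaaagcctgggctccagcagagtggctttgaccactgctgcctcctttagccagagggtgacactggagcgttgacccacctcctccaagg
Socs3, STAT3 motif TTCCNGGAA, intergenic, chr11:117962527-117962726: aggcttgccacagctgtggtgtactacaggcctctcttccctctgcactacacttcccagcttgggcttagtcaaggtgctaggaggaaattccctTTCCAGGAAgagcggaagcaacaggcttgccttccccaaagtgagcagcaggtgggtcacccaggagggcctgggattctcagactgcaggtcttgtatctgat
Dppa4, SOX motif on the minus strand, intron of the neighbouring Dppa2, chr16:48314880-48315079: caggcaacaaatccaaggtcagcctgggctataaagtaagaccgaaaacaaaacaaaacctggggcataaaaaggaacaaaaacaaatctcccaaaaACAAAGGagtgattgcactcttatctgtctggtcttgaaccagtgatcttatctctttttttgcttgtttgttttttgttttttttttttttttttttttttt
Vwf and Cd9, CTCF motif, intergenic, chr6:125456223-125456422: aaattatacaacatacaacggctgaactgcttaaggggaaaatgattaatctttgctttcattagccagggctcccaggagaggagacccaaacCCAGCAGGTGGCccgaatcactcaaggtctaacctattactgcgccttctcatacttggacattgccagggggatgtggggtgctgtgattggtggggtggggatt
Zfp985, SOX motif on the minus strand, intergenic, chr4:147519713-147519912: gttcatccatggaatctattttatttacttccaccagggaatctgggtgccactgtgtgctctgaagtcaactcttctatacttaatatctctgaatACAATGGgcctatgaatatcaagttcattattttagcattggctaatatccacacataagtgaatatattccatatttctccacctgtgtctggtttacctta
Zfp988, SOX motif on the minus strand, intron of a long noncoding RNA gene beside Zfp988, chr4:147232334-147232533: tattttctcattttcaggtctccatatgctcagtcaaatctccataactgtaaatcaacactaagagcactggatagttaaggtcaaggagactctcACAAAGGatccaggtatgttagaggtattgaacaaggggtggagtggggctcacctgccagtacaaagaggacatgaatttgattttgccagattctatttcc
In the Esrrb cluster 1 of 17 peaks held the motif that ESRRB itself binds, and in the Socs3 cluster 1 of 15 peaks held the STAT3 motif. These motifs were in 1.43% and 0.889% of all distal peaks, and 99 and 65 clusters held at least 1 match, so a single match is not particular to these clusters. Socs3 encodes a feedback inhibitor of LIF signalling through STAT3. In the Vwf and Cd9 cluster 5 of 39 peaks held the CTCF motif, as many as in any cluster, against 8.90% of all distal peaks. In the Dppa4 cluster 4 peaks held the SOX motif. Neither count was tested. The clusters with Zfp985 and Zfp988 held 6 peaks each with the SOX motif, CCATTGT or CCTTTGT (6 of 62 and 6 of 55, near the 10.9% of all distal peaks), and no peak with an OCT4::SOX2 or CTCF match. A match is a stretch of letters and does not show that a factor bound there.

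The clusters were a small and uneven part of the runs. Of 42407 runs of distal peaks, 23649 held a single peak and 1.26% were dense clusters. The median cluster held 12 peaks and was 59.7 kb long, with a range of 10 to 62 peaks and of 20.1 to 235.71 kb. There were 124 clusters of at least 15 peaks, 46 of at least 20, and 8 of at least 30. Just outside the threshold there were 209 runs of 9 peaks with a median length of 44.0 kb, and just inside it 151 runs of 10 peaks with a median length of 50.8 kb. Spans of clusters added up to 34.9 Mb, or 1.42% of the autosomes, and 39 clusters were longer than 100 kb.

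**Figure D1:**
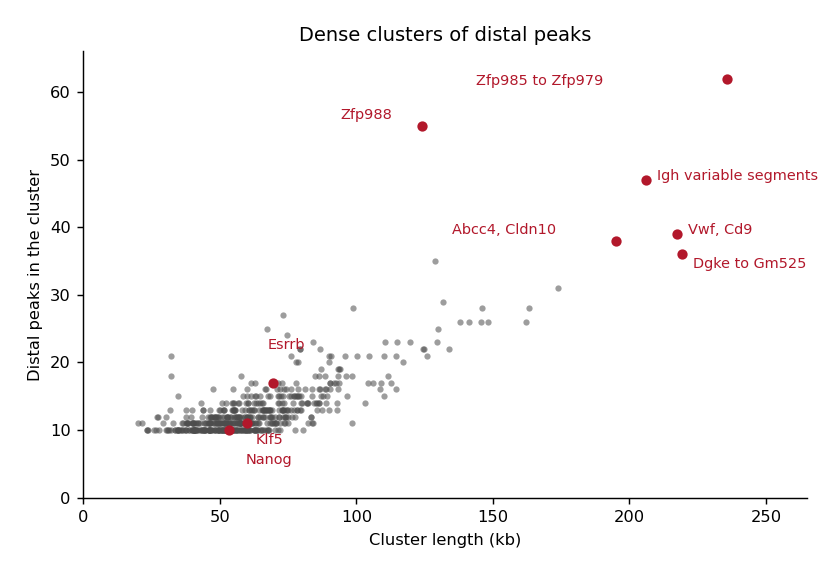
Number of distal peaks (vertical axis) against length in kb (horizontal axis) for the 536 clusters, 1 point each, with named clusters in red. Most points lie below 100 kb and 20 peaks, and the cluster with Zfp985 stands at 62 peaks and 235.71 kb.

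Within clusters most of the span lay between peaks. The median gap was 4301.5 bp, and 19.6% of 6626 gaps were under 1 kb. Peaks covered a median of 10.9% of the span, from 4.48 to 56.0%. There were a median of 2.02 peaks per 10 kb, from 1.12 to 6.55. Members had a median width of 433 bp (10th to 90th percentile 216 to 994 bp), and 142 of them were at least 1500 bp wide. The cluster with the most peaks per length, on chr3:3000459-3032505, held 21 peaks at 6.55 per 10 kb, had no protein-coding TSS on its proximal side and lay 476 kb from Hnf4g. Whether blacklisted regions had been removed from this place was not tested. It was followed by clusters that overlapped Garem1 (18 peaks, 5.58 per 10 kb), Ccdc92 (11 peaks, 5.48), Slc31a1 (11 peaks, 5.10), which encodes a copper transporter, and Zfp988 (55 peaks, 4.43). In the Zfp988 cluster peaks covered 51.5% of the span, and its widest peak of 6202 bp was the widest of all members.

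The clusters with the most peaks fell into a few kinds of locus. The first, on chr4:147382885-147618594, held 62 peaks over Zfp985, Zfp982, Gm16503 and parts of Zfp978 and Zfp979, and the next, on chr4:147230986-147355042, held 55 peaks over Zfp988. These are genes of a zinc finger family that is arrayed in copies on distal chromosome 4. The clusters of Zfp990 with Gm13212 (28 peaks) and Zfp992 (27 peaks) lay in the same part of the chromosome. In all, 9 clusters with 245 peaks overlapped a gene with a Zfp symbol, of which 6 with 198 peaks were on chromosome 4. Reads from similar copies can be hard to place, and whether reads that matched several places were kept was not tested. Within clusters, 6962 members (97.2%) shared no 31-base word with another member of their cluster, and 60 shared at least 10% of such words, of which 14 were among the 25 members of the Gm21190 and Gm21083 cluster on chromosome 5, 19 among the 55 of the Zfp988 cluster and 2 among the 62 of the Zfp985 cluster. None was in the Zfp990 and Zfp992 clusters. The words were compared only within a cluster, so copies in other clusters or outside clusters were not covered. These counts therefore do not show how well reads could be placed.

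The cluster with the next largest count, on chr12:115478946-115684955, held 47 peaks and no protein-coding gene. It lay in the immunoglobulin heavy chain locus over 7 variable gene segments and 3 variable pseudogenes, and 12 proximal peaks also lay in the span. The clusters after it held genes of other kinds. That of Vwf, which encodes the clotting factor of endothelium, and Cd9, which encodes a tetraspanin, held 39 peaks over 217 kb. That of Abcc4, a transporter gene, and Cldn10, a tight junction gene, held 38 peaks over 195 kb. That of Dgke, Coil, Trim25 and Gm525 held 36 peaks over 219 kb and lay 115 kb from Nog, which encodes a BMP antagonist. Further clusters lay in Myo10 (31 peaks), over Tnfrsf8, Tnfrsf1b and Vps13d (29 peaks), over Etnk1 and C2cd5 (28 peaks), over Prtg (26 peaks) and between Zfp236 and Zfp516 on chromosome 18 (26 peaks).

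Long gene-poor stretches also held large clusters. Between Tpm3-rs7 and Gpc5 on chromosome 14 there were 10 clusters with 180 peaks, of which the largest held 35 peaks on chr14:114392910-114521587, 571 kb from the TSS of Gpc5, and the next 28 peaks on chr14:113536515-113699815. No proximal peak lay in either of these clusters. Some of the large clusters were poor in GC. Of the 46 clusters with at least 20 peaks, 13 (28.3%) had a GC content below 43.1%, which is the 10th percentile of all clusters. These 13, picked by their GC content, had a median repeat-masked share of 32.5%, while the other 33 had a median of 16.4%, a difference that was not tested. Among the 13 were 4 of the Zfp clusters on chromosome 4, the immunoglobulin cluster, 4 of the clusters between Tpm3-rs7 and Gpc5 and the cluster with the interferon-inducible genes Mndal, Ifi203 and Ifi202b (25 peaks).

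The clusters were spread unevenly over the chromosomes. The share of distal peaks in clusters was 16.7% on chromosome 14, 12.7% on chromosome 15, 12.55% on chromosome 4 and 11.7% on chromosome 18, with a median of 7.15% over the 19 autosomes. Chromosome 16 was lowest at 1.79%, with 4 clusters. Per 100 Mb there were from 4.07 clusters on chromosome 16 to 40.03 on chromosome 14. These chromosomes held 24.5 and 34.2 distal peaks per Mb. Clusters also lay near one another, with 118 (22.01%) within 100 kb of the next and a median distance of 674 kb.

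**Figure D2:**
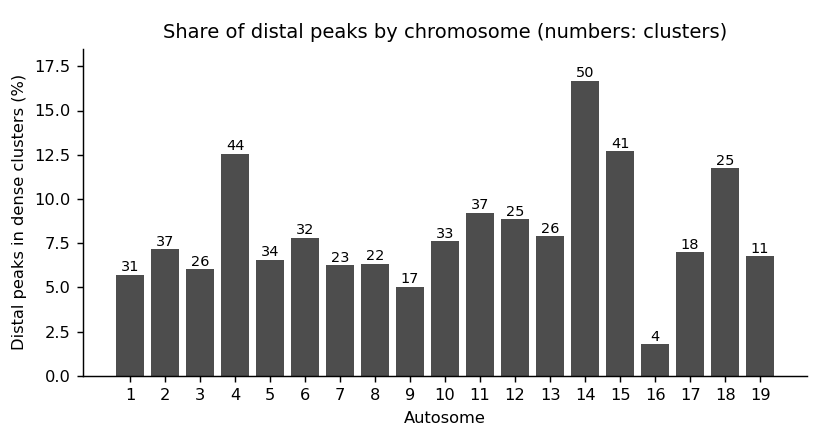
Share of distal peaks that lie in dense clusters, in percent (vertical axis), for each of the 19 autosomes, with the number of clusters above each bar. Chromosome 14 is highest at 16.7% with 50 clusters, and chromosome 16 lowest at 1.79% with 4 clusters.

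Most clusters overlapped genes, and about as many held a start site as did not. At least 1 protein-coding gene was overlapped by 383 clusters, while 153 with 2000 members overlapped none. A single gene was overlapped by 257 clusters and several genes by 126. A cluster lay wholly inside 1 gene in 124 cases (23.1%), such as Myo10 (31 peaks), Rnf220 (26 peaks), Ror2 (22 peaks), which encodes a receptor for WNT5A, and Mbnl2 (21 peaks). A protein-coding TSS lay inside 270 clusters (50.4%), and 258 held at least 1 proximal peak, 500 in all. The clusters without a gene lay a median of 53.9 kb from the nearest protein-coding TSS, 50 of them more than 100 kb away and the farthest 1224 kb. Long noncoding RNA genes were overlapped by 158 clusters and miRNA genes by 37, among them that of Nrf1 and Ube2h with Mir182, Mir96 and Mir183 and that of Srebf2 with Mir33.

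Of the lists of genes examined, the naive pluripotency regulators had the largest share of members in or beside clusters. A TSS lay inside a cluster for 6 of 23 autosomal members (26.1%) and within 50 kb of one for 8 (34.8%). The background over all 20807 autosomal protein-coding genes was 1.79% inside and 4.99% within 50 kb. The median distance to a cluster was 854 kb for the list and 1643 kb for all genes, and it was shorter for the trophectoderm (497 kb) and signalling (594 kb) lists. Of the 23 regulators, 22 had a peak at a TSS, and over all 15046 genes with such a peak the shares were 2.15% inside and 5.99% within 50 kb. The list was chosen with results of these data known, and no test of the list was made. The count within 50 kb depended on the definition of a cluster: it was 2 for clusters of at least 15 peaks, 0 for at least 20 and 3 when distal peaks lay more than 2500 bp from a TSS, where 1.23%, 0.476% and 2.55% of all genes were within 50 kb. With gaps of up to 25000 bp it was 18, against 24.6% of all genes, and with gaps of up to 5000 bp it was 0, against 0.120%.

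Clusters with naive pluripotency regulators were of ordinary size for dense clusters. Nanog, which encodes a homeodomain factor of the core network, lay in a cluster of 10 peaks on chr6:122686874-122740396, together with part of the glucose transporter gene Slc2a3. Its widest peak, 2318 bp, began 24.6 kb from the start of the cluster, inside the Nanog gene, and its other peaks were 204 to 1094 bp wide. Klf5 lay in a cluster of 11 peaks on chr14:99294486-99354444, with 8 of them beyond the 3' end of the gene. The Esrrb cluster on chr12:86433151-86502554 held 17 peaks, all intronic, inside the 161 kb gene of this orphan nuclear receptor. Klf2, another Krüppel-like factor gene, shared a cluster of 12 peaks on chr8:72308416-72383363 with Eps15l1. Dppa2 and Dppa4, neighbouring genes of early embryonic chromatin factors, shared a cluster of 11 peaks on chr16:48279118-48328804 with a repeat-masked share of 42%, against a median of 16.2% over clusters. Sall4, which encodes a zinc finger factor, had its TSS 1.34 kb from a cluster of 17 peaks on chr2:168769281-168878437 that reached towards Zfp64. Prdm14, a regulator that holds back FGF signalling, had its TSS 8.11 kb from a cluster of 14 peaks on chr1:13076090-13119057. At 3.26 peaks per 10 kb the Prdm14 cluster was the most closely spaced of these 7, and that of Sall4 the least at 1.56.

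**Figure D3:**
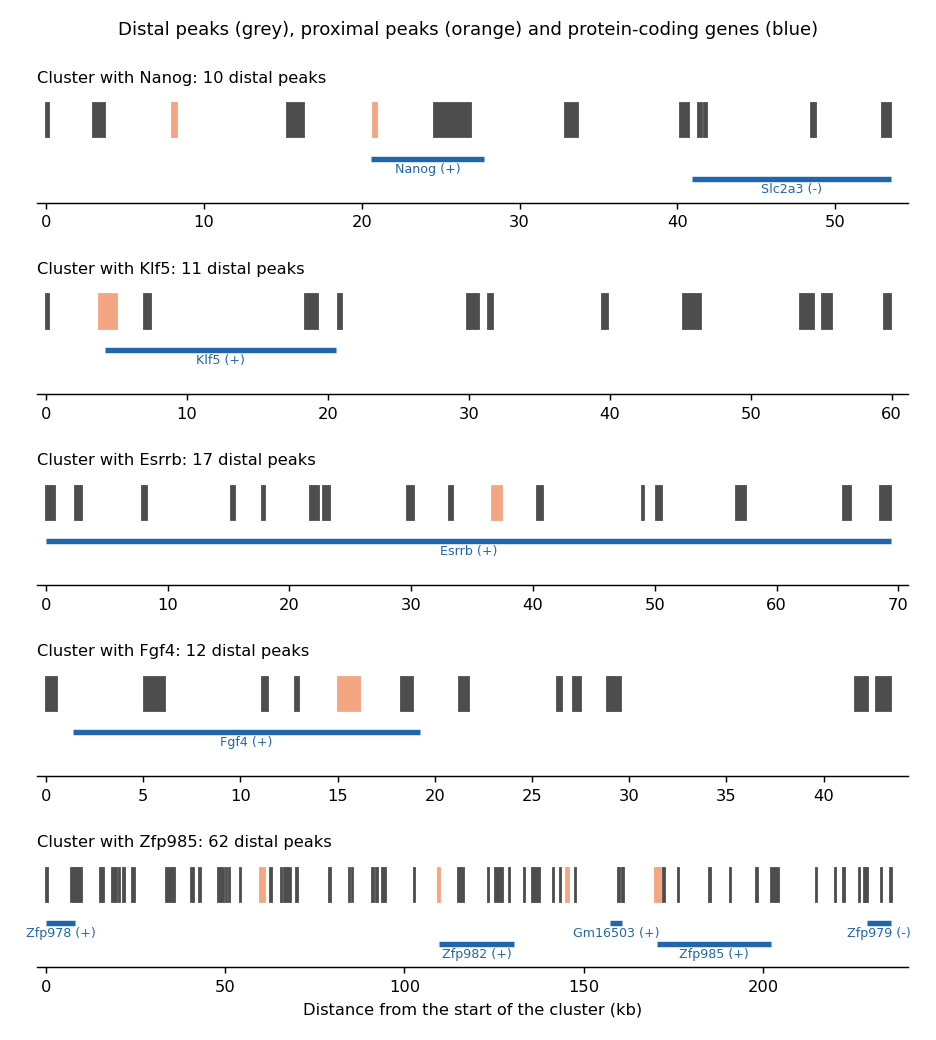
Maps of 5 clusters by distance from the start of the cluster in kb (horizontal axis), with distal peaks in grey, proximal peaks in orange and protein-coding genes in blue with their strand. The 17 distal peaks of the Esrrb cluster all lie inside Esrrb, while the 62 of the Zfp985 cluster lie both inside and between the 5 genes drawn.

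Genes of signalling pathways that act on ES cells were the next list. Of 32 members, 5 (15.6%) had a TSS inside a cluster and 9 (28.1%) within 50 kb. Among ligands, Fgf4, which drives exit from naive pluripotency, lay in a cluster of 12 peaks on chr7:144845994-144889462. Among inhibitors, Spry2 lay in a cluster of 16 peaks and Spry1 in 1 of 10 peaks, both feedback inhibitors of FGF signalling, and Socs3 in 1 of 15 peaks with Pgs1 and Dnah17, beside another of 12 peaks. Tcf7l1, the WNT pathway repressor of pluripotency genes, held 2 clusters of 10 peaks inside the gene, and a cluster of 13 peaks over Kcmf1 began 5.73 kb from a TSS of Tcf7l1. Axin2 (7.95 kb), Smad7 (9.31 kb), Spry4 (10.8 kb) and Lefty1 (17.1 kb), had a TSS outside but near a cluster.

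Among the lists of later cell types, Tfap2c (16 peaks) and Dlx3 (12 peaks), 2 of 13 trophectoderm genes (15.4%), had a TSS inside a cluster, a share near that of the signalling list. Of 13 formative and primed genes none lay inside, and Dnmt3b, a de novo DNA methyltransferase gene, was 26.3 kb away. Of 12 endoderm genes, 12 primitive streak and mesoderm genes, 14 neural transcription factor genes and 18 terminal tissue genes none had a TSS within 50 kb. With a background of 4.99%, lists this short can hold none near a cluster without differing from other genes. Most genes of the first 3 of these lists did have a peak at a TSS (11, 11 and 14), as did 4 of the 18 terminal tissue genes. Among large families, 8 of 385 genes with a Zfp symbol had a TSS inside a cluster (2.08%), near the background of 1.79%. None of 1128 olfactory receptor genes with an Olfr symbol did, of which 81 had a peak at a TSS.

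**Figure D4:**
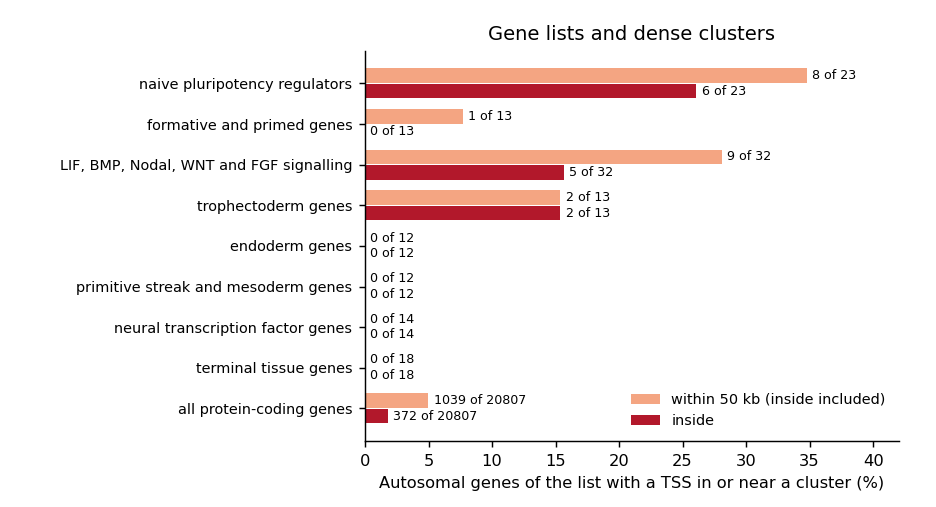
Share of autosomal genes of each list, in percent (horizontal axis), with a TSS inside a cluster (red) and within 50 kb of a cluster or inside it (orange), with counts beside the bars. The naive pluripotency list stands at 6 and 8 of 23, compared with 372 and 1039 of 20807 protein-coding genes.

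Genes with a TSS inside clusters more often had a peak at any of their TSSs than other genes. This measure and the next come from the same peak list but were not used to choose clusters. They were compared with the chromosome as the unit, over the 18 autosomes with enough genes. A peak lay at a TSS of 324 of the 372 genes inside clusters. A gene was inside when any of its TSSs was, so its peak may lie at another TSS outside the cluster. Genes with many TSSs can meet both conditions more easily. Neither the number of TSSs nor a comparison with genes near clusters was tested. The share was 87.3 ± 6.84% (SD, n = 18 chromosomes) inside and 73.1 ± 6.12% for other genes, higher inside by 14.2 ± 9.52 percentage points on 17 of 18 (adjusted p of the sign-flip permutation 4e-05). Inside clusters it ranged from 77.8 to 100% with a median of 87.3%, and outside from 59.4 to 83.4% with a median of 74.1%, so the ranges overlapped. The other genes include 1128 Olfr genes, 81 with a peak at a TSS, and 329 Vmn genes, 16 with one. No gene of either family had a TSS inside a cluster, and the difference without these families was not tested. Proximal peaks inside clusters were narrower than other proximal peaks, with a median width of 726 ± 135 bp against 968 ± 39.7 bp and a difference of -242 ± 145 bp (lower on 17 of 18 by the sign-flip permutation test, adjusted p = 2e-05).

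CTCF motifs were less frequent in clusters. A match to the 12-letter CTCF motif with up to 1 mismatch was present within 200 bp around the centre of 433 members (6.05%), of 7439 other distal peaks (9.15%) and of 8.90% of all distal peaks. By chromosome the share in clusters ranged from 2.77 to 9.30% with a median of 7.06%, and that in other distal peaks from 6.29 to 12.3% with a median of 8.76%. The mean shares were 6.49 ± 2.01% and 9.22 ± 1.39% (SD, n = 19 chromosomes), and the share was lower in clusters by 2.73 ± 1.63 percentage points on 19 of 19 (permutation by sign flips, adjusted p = 0.00013 over 13 measures). The unadjusted p of 1e-05 is the smallest that these resamples can give. The difference was widest on chromosomes 4 (3.10 against 9.85%) and 17 (2.77 against 8.66%), and smallest on chromosomes 16 (9.30 against 9.90%) and 10 (7.87 against 8.55%). It was -3.003 points against distal peaks within 250 kb of a cluster and -2.93 points after standardising both sets to strata of GC content, and it narrowed to -1.23 points when runs were joined over gaps of up to 25000 bp.

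The CTCF share was also read along the clusters, a comparison chosen after this result was seen. A match was present in 72 of 1072 end peaks and 361 of 6090 inner peaks. By chromosome the shares were 6.38 ± 3.79% and 6.32 ± 2.12%, a difference of 0.0596 ± 4.21 points (18 chromosomes, sign-flip permutation, adjusted p = 0.952). Of the 989 distal peaks that flanked a cluster without being in another, 79 held a match. Their share by chromosome was 8.02 ± 5.67%, a difference from inner peaks of 1.70 ± 5.34 points (sign-flip permutation, adjusted p = 0.398). Neither difference was larger than the spread between chromosomes, but with runs joined over gaps of up to 25000 bp both passed the threshold, at 2.41 and 3.03 points (permutation, adjusted p = 0.0008 and 0.0024).

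Members were slightly richer in GC and poorer in repeats than other distal peaks. The GC content around peak centres was 49.5 ± 1.99% in clusters and 48.1 ± 1.00% in other distal peaks, a difference of 1.37 ± 1.43 points (higher on 15 of 19, sign-flip permutation with adjusted p = 0.00748). CpG dinucleotides differed by 0.18 ± 0.24 per 100 bp (higher on 14 of 19 chromosomes, permutation, adjusted p = 0.0186). Repeat-masked bases made up 19.9 ± 4.93% and 22.8 ± 2.12%, a difference of -2.92 ± 3.86 points (lower on 15 of 19 chromosomes, permutation, adjusted p = 0.0186). Against distal peaks within 250 kb of a cluster none of the 3 differences passed the threshold of the permutation test, with 0.51 points for GC (adjusted p = 0.269), 0.04 for CpG (adjusted p = 0.503) and -0.12 points for repeats (adjusted p = 0.839). For clusters of at least 20 peaks, among them the 13 poor in GC, they were 0.12, -0.08 and 0.49 (permutation, adjusted p = 0.905 for each).

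**Figure D5:**
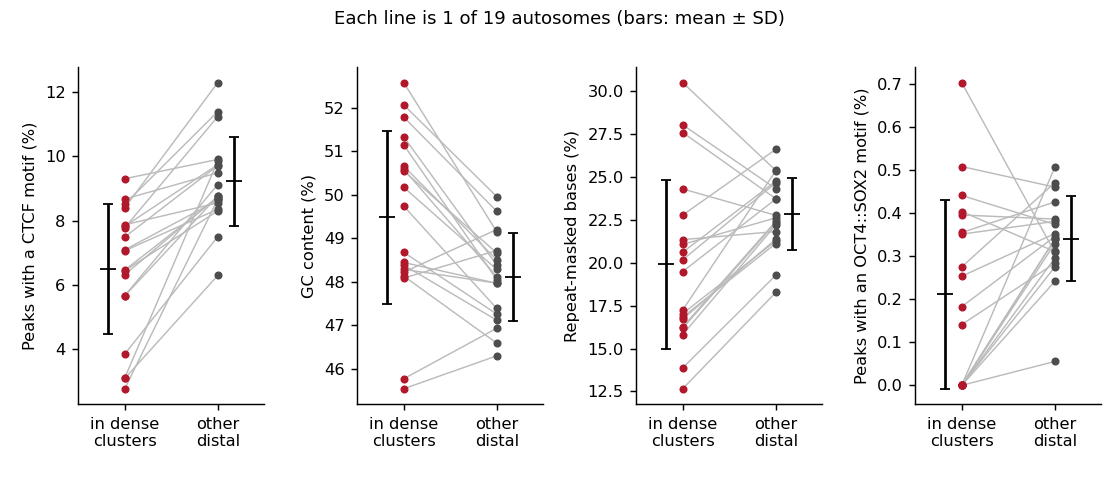
Share of peaks with a CTCF motif, GC content, repeat-masked share and share of peaks with an OCT4::SOX2 motif, all in percent (vertical axes), in dense clusters and in other distal peaks, with 1 line for each of 19 autosomes and bars for the mean and SD. All 19 lines rise from clusters to other peaks for CTCF, while lines run both ways in the other panels.

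Of the motifs of pluripotency factors, the OCT4::SOX2 motif alone passed the threshold, in a call that depended on the settings. The OCT4::SOX2 match was present in 17 members (0.237%), 283 other distal peaks (0.348%) and 0.339% of all distal peaks. The paper searched loci bound by OCT4 or SOX2 with HOMER and found the composite motif far more often. The shares here come from a stricter search by fixed letters and do not measure how common composite sites are. The share by chromosome was 0.211 ± 0.219% in clusters and 0.341 ± 0.0981% outside, lower in clusters by 0.130 ± 0.206 points on 14 of 19 (sign-flip permutation with adjusted p = 0.0377). With 17 matches in all, several chromosomes had none in clusters, among them 16 with 43 members and 19 with 131. A lower share is easily reached at such counts, so the number of lower chromosomes says little. The permutation test lost the call under 15 of 18 alternatives, including the count of matches with up to 1 mismatch (-0.0128 points, adjusted p = 0.538) and peaks within 250 kb of a cluster (-0.105 points, adjusted p = 0.273). The OCT motif ATGCAAAT was present in 104 members (1.452%) and in 1.44% of all distal peaks. The SOX motif was present in 709 members (9.90%) and in 10.9% of all distal peaks, and 83 clusters held it in at least 3 members. The ESRRB motif was present in 115 members (1.61%) and in 1.43% of all distal peaks. The KLF motif, GGGTGTGGC or GGGCGTGGC, was present in 149 members (2.08%) and in 1.95% of all distal peaks. The STAT3 motif was present in 69 members (0.963%) and in 0.889% of all distal peaks. For these 5 motifs the differences in share ranged from -0.549 (SOX) to 0.188 points (ESRRB), none past the threshold (sign-flip permutation, adjusted p from 0.435 to 0.986). The SOX share was lower in clusters on 13 chromosomes and higher on 6. Among the 6 was chromosome 16, with 43 members, at 20.9 against 11.5%, a difference of 9.42 points. No alternative left this chromosome out. When whole peaks were searched, which are wider in clusters, SOX (1.79 points, adjusted p = 0.0149), ESRRB (1.005 points, adjusted p = 0.0108) and STAT3 (0.67 points, adjusted p = 0.00837) were more frequent in members by the same permutation test. SOX was less frequent in members, past the threshold, with gaps of up to 25000 bp (-1.45 points, permutation with adjusted p = 6.5e-05), in clusters of at least 15 peaks (-1.82) or 20 peaks (-2.76) and among intergenic peaks (-1.65), and OCT was less frequent among intronic peaks (-0.430).

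Neither the intron share nor the exon share of members passed the threshold. Of the members, 3444 (48.1%) were centred in introns, 383 (5.35%) in exons and 3335 (46.6%) between genes, and 71.2% lay within 50 kb of a protein-coding TSS, compared with 61.8% of other distal peaks. Pooled over chromosomes the median distance was 23.8 kb for members and 28.2 kb for other distal peaks, given as a description because positions chose the members. The intron share by chromosome was 48.8 ± 11.05% in clusters and 44.4 ± 3.01% in other distal peaks (permutation, adjusted p = 0.171). The exon share was 5.70 ± 2.18% and 6.27 ± 1.40% (sign-flip permutation over 19 chromosomes, adjusted p = 0.407). The median distance to the nearest protein-coding TSS by chromosome was 31.0 ± 29.9 kb and 30.8 ± 12.2 kb, lower in clusters on 12 chromosomes and higher on 7, and without chromosome 14 the mean difference, clusters minus other distal peaks, was -4.17 kb. The distance in clusters reached 147 kb on chromosome 14, against 68.1 kb outside.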

How the data were processed

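ATAC-seq, which marks open chromatin by Tn5 insertion, was measured in 54 samples. The authors aligned reads to mm10/GRCm38 with STAR 2.6.1c, removed duplicates with Picard, called peaks with MACS 2.1.1.20160309 (BAMPE mode) and merged peaks of all experiments with BEDTools. The methods describe removal of peaks above 5 kb, but the deposited list held 11 of them, 3 among members, and whether input and blacklisted regions had been removed from it was not checked. Whether calls were made per library or pooled was not given in the sources used here, and no sample values were used.

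TSSs and genes were taken from GENCODE M21 and sequence from RefSeq GRCm38.p6. Motifs were searched on both strands in 200 bp around peak centres with Python 3.11.15, numpy 2.4.6 and pysam 0.24.0. Chromosomes with at least 30 peaks in each set (at least 5 genes or proximal peaks inside) were the units of two-sided sign-flip permutation tests with 100000 resamples. Benjamini-Hochberg adjustment was made within each family (13 peak measures, 2 gene measures and 2 CTCF comparisons along clusters), and calls were taken at 0.05. The run builder and the motif search were checked on planted cases. The sign-flip test was checked on simulated normal values only, which do not stand for sparse motif shares from unequal numbers of peaks.

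Clusters named were the 15 with the most peaks, the 5 longest, the 5 with the most peaks per kb and those within 50 kb of a naive pluripotency regulator, and genes of the lists with a TSS in or near a cluster. Other genes and miRNAs were named after their values were seen. Members and lists were chosen with earlier results of these data known.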

Additional observations from a re-analysis of the deposited data

How the results depend on the processing

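Of 261 values under alternatives, 183 kept their direction and side of the threshold, or lay within 1.5 times the main count. The lower CTCF share (-3.56 to -1.23 points), the TSS peak share of genes inside (12.1 to 16.5 points) and the narrower proximal peaks (-268 to -140 bp) did so under every alternative they were run under. For the other values that changed the cause was not tested, and values are differences between members and other distal peaks in percentage points (kb for TSS distance, per 100 bp for CpG), or between end or flanking peaks and inner peaks for CTCF at ends and in flanks. Gaps of up to 5000 bp gave 18 clusters with 0 regulators within 50 kb, too few peaks per chromosome for tests. Gaps of up to 25000 bp gave 1765 clusters and 18 regulators (24.6% of all genes lay within 50 kb), reversed exons past the threshold (0.975), TSS distance (-8.17) and OCT (-0.184), brought introns (3.12), SOX (-1.45), KLF (0.378) and CTCF at ends (2.41) and in flanks (3.03) past the threshold, and lost OCT4::SOX2 (-0.0507). At least 15 peaks gave 124 clusters and 2 regulators, reversed KLF (-0.229) and CTCF in flanks (-0.202), called SOX (-1.82) and lost GC (1.22), CpG (0.104), repeats (-2.11) and OCT4::SOX2 (-0.178). At least 20 peaks gave 46 clusters and 0 regulators, reversed CpG (-0.0784), repeats (0.487), introns (-2.98), ESRRB (-0.389), KLF (-0.241) and STAT3 (-0.170), called SOX (-2.76) and lost GC (0.118) and OCT4::SOX2 (-0.0425). CTCF at ends and in flanks could not be computed there. A distal limit of 500 bp reversed TSS distance (-4.03) and KLF (-0.0661) and lost OCT4::SOX2 (-0.101). A limit of 2500 bp gave 356 clusters and 3 regulators, reversed KLF (-0.0210) and lost CpG (0.0722) and OCT4::SOX2 (-0.0992). Without peaks under 200 bp TSS distance (-1.79), KLF (-0.0073) and CTCF at ends (-0.593) reversed. Without chromosome 4 CTCF at ends reversed (-0.0338) and OCT4::SOX2 was lost (-0.129), and without chromosome 14 TSS distance (-4.17) and CTCF at ends (-0.341) reversed. Against peaks within 250 kb SOX (0.368), KLF (-0.513) and STAT3 (-0.0412) reversed, and GC (0.509), CpG (0.0437), repeats (-0.117) and OCT4::SOX2 (-0.105) were lost. Against single peaks exons (0.447) and TSS distance (-12.6) reversed and OCT4::SOX2 was lost (-0.0987). In GC strata KLF reversed (-0.257) and CpG (0.0395), repeats (-1.96) and OCT4::SOX2 (-0.103) were lost. In whole peaks OCT (-0.0481) and SOX (1.79, past the threshold) reversed, ESRRB (1.005) and STAT3 (0.667) passed the threshold and OCT4::SOX2 was lost (-0.158). OCT4::SOX2 was also lost with 1 mismatch (-0.0128) or 3 (-0.438). Among intronic peaks OCT reversed past the threshold (-0.430, permutation with adjusted p = 0.00412), KLF reversed (-0.322) and OCT4::SOX2 was lost (-0.201). Among intergenic peaks STAT3 reversed (-0.163), SOX was called (-1.65), and CpG (0.189) and OCT4::SOX2 (-0.0590) were lost. Clusters of 10 to 19 peaks alone, chosen after seeing the data, reversed TSS distance (-3.87) and lost OCT4::SOX2 (-0.129).

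No paired analysis was possible because the merged list holds no values by sample, so the replicate numbers of the labels could not be used. The list does not show in which group, phase or replicate a peak was called, nor how strongly. The chromosomes are the units of the tests and are not replicates of the cells.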

Other observations

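Some clusters held several start sites. Cblc, Bcl3, Ceacam19, Ceacam16 and Gm19345 shared a cluster of 18 peaks over 112 kb on chromosome 7, with 5 TSSs inside. Sdc4, Matn4, Rbpjl and Slpi shared 12 peaks over 65.7 kb on chromosome 2, and Srebf2, which encodes a regulator of sterol synthesis, shared 11 peaks over 83.6 kb on chromosome 15 with 4 other genes. Kat6b, a histone acetyltransferase gene, hosted a cluster of 17 peaks. Clusters beside Klf5 continued along chromosome 14, with 14 peaks 176 kb from its TSS and 10 peaks inside Klf12, another Krüppel-like factor gene.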
